A study of Mus musculus with 73 samples.

Results

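The expression of 43 cell-cycle genes was followed in sorted mouse microglia, the resident macrophages of the brain. The 43 genes were taken from a list of proliferation genes and were found by exact symbol in each of 3 deposited expression tables, among 39179 genes in each. They fall into 4 classes by the stage of the cycle in which they act: 8 genes of G1 and G1/S control, 2 inhibitors of cyclin-dependent kinases (CDKs), 11 genes of S phase (DNA replication and nucleotide supply), and 22 genes of G2 and mitosis. All groups were C57BL/6 mice. Cells positive for CD11b and CD45, surface proteins of myeloid cells, were sorted from the brain by flow cytometry and their mRNA was sequenced as stranded libraries. At 4 months of age the groups were wild type (7 libraries), 5xFAD (9), 5xFAD lacking CD33 (4), 5xFAD lacking TREM2 (4) and 5xFAD lacking both (2). At 8 months, 1 table held wild type (6), 5xFAD (10) and 5xFAD lacking TREM2 (8), and another held 5xFAD (11) and 5xFAD lacking CD33 (12). 5xFAD mice carry mutant human amyloid precursor protein and presenilin transgenes driven by the neuronal Thy1 promoter and deposit amyloid in the brain. CD33 is a sialic acid receptor that restrains microglia, and TREM2 is a lipid-binding receptor that signals through the adaptor TYROBP. No knockout was profiled without the 5xFAD transgenes. The 5xFAD libraries of a table were the controls for each knockout in it, so those comparisons share samples.

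In an adult brain most microglia are outside the cell cycle and renew slowly, and they divide more around amyloid plaques. A cell enters the cycle when D-type cyclins with CDK4 or CDK6, then cyclin E with CDK2, free E2F factors from the retinoblastoma protein. E2F factors switch on the S-phase genes. The mitotic genes are held down in resting cells by the DREAM complex and switched on later by its MuvB core with B-MYB and FOXM1. These complexes bind promoters at a cell cycle homology region (CHR), usually near CCAAT boxes bound by NF-Y. The inhibitor p21, the product of Cdkn1a, blocks CDKs and is a target of p53.

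The library labels were checked first. Trem2 lay between 501 and 875 RPKM (reads scaled by gene length and library depth) in wild-type and 5xFAD libraries at 4 months, and between 26.8 and 36.3 RPKM in libraries labelled TREM2-/-. Cd33 lay between 115 and 152 RPKM in 5xFAD at 4 months and between 0.0526 and 0.205 RPKM in the CD33-/- group. The 2 libraries labelled CD33-/-;TREM2-/- held 14 RPKM (replicate 1) and 0.0 RPKM (replicate 2) of Cd33, so the library labelled CD33-/-;TREM2-/- replicate 1 goes against its label for Cd33. At 8 months, 1 of the 12 libraries labelled CD33-/- (replicate 7) held 19.1 RPKM. Results on these groups are given with and without those libraries. The depth worked out from the RPKM steps ran from 21188034 to 79654244 reads a library. At 4 months, 1 library each of the double knockout, CD33-/- and TREM2-/- groups held reads of both Xist and the Y-linked gene Ddx3y (at least 1 RPKM), which no other library did. In the double knockout it was replicate 1, the library with Cd33 reads. The counts without these libraries are given where they differ. All 10 microglial markers had a mean of at least 1 RPKM in each group. None of the 8 T and NK cell markers did in any group, and their summed level was at most 3.32 RPKM. Of 8 markers of neutrophils and their precursors 6 did in every group, and their sum ran from 43.8 to 652 RPKM at 4 months and from 110 to 2590 RPKM at 8 months, with wide overlap between genotypes. Of 8 markers of border macrophages and monocytes 5 to 8 did, with sums from 12.7 to 73.7 RPKM. The sums over all libraries ran from 224 to 494 RPKM for B cell markers (2 of 5 at a mean of at least 1 RPKM), 58.4 to 382 RPKM for oligodendrocytes, 2.78 to 23.4 RPKM for their precursors, 17.8 to 56.4 RPKM for astrocytes and 8.21 to 176 RPKM for erythrocytes. Their part in the results was not tested. In bulk samples, fewer cells in cycle and less RNA per cycling cell cannot be told apart. Nothing in the labels says that libraries of a group came from separate animals, so p-values measure the spread between these libraries.

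Promoter sequences are shown for 7 genes on which the results turn: 5 mitotic and 2 S-phase genes that were called in 5xFAD at 4 months. They are RefSeq sequences on GRCm38.p6, from 160 bases before to 20 after the transcription start, written 5′ to 3′ on the strand of the gene. Capitals mark matches, on either strand, to the CHR (TTTGAA or TTCGAA), to CCAAT, or to an E2F motif (GCGCGAA or GCGGGAA). Cdk1 encodes the kinase that drives entry into mitosis (chr10:69352893-69353072 on the minus strand), Ccnb2 encodes its partner cyclin B2 (chr9:70421535-70421714 on the minus strand), and Mki67 encodes the proliferation antigen Ki-67 (chr7:135716360-135716539 on the minus strand). Top2a encodes the topoisomerase that untangles sister chromosomes (chr11:99024170-99024349 on the minus strand), and Ube2c encodes the ubiquitin-conjugating enzyme of the anaphase-promoting complex (chr2:164769769-164769948 on the plus strand). Mcm5 (chr8:75109349-75109528 on the plus strand) and Mcm6 (chr1:128359686-128359865 on the minus strand) encode subunits of the replicative helicase.
Cdk1: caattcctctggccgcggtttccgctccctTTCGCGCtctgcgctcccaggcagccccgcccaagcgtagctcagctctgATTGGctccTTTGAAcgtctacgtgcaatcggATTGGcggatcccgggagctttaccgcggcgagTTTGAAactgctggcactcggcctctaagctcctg
Ccnb2: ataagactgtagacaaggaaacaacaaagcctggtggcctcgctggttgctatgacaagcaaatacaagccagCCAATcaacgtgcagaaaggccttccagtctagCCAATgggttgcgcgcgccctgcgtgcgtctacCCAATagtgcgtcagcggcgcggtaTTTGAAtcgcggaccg
Mki67: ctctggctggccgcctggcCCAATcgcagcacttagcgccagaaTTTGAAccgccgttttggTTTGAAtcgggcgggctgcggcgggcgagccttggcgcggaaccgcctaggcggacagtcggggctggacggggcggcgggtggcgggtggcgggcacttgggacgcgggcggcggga
Top2a: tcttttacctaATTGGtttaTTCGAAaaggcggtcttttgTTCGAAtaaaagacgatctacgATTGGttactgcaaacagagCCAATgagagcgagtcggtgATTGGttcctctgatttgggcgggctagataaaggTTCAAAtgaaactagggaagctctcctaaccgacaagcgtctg
Ube2c: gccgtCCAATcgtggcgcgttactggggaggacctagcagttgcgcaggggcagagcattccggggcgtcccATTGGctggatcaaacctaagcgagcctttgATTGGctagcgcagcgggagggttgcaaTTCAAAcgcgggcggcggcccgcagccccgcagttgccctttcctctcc
Mcm5: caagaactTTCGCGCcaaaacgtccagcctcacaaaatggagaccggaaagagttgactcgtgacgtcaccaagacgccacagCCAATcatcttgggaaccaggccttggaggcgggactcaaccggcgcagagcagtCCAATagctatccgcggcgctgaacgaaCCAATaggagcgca
Mcm6: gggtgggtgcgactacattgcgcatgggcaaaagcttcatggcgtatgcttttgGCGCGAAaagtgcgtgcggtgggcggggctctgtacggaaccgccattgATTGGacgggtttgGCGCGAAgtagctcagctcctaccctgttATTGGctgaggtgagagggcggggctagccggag

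The 5 mitotic promoters above hold both CHR and CCAAT matches, and the 2 helicase promoters hold CCAAT and E2F matches without a CHR match. The same search was run over 250 bases before to 50 after the start. RefSeq windows were found for 33 of the 43 genes, giving 36 windows. A CHR match was present in 13 of 17 windows of mitotic genes, 2 of 11 windows of S-phase genes, 0 of 5 windows of G1 genes and 0 of 3 windows of CDK inhibitors. Over all 32851 promoters of the same length, 19.2% held a CHR match, and over the 11176 promoters of genes that passed the expression filter at 4 months it was 13.1%. CHR and CCAAT matches occurred together in 13 of 17 mitotic windows, against 7.52% of all promoters and 5.14% of those of expressed genes. The windows of Prc1 overlap and hold the same matches, and by gene it was 12 of 16. E2F matches were found in 6 of 11 S-phase windows and 1 of 17 mitotic windows (Cdk1), against 6.0% of all promoters and 10.6% of those of expressed genes. By gene it was 5 of 10 S-phase genes. CCAAT alone was common, with 37.4% of all promoters, 15 of 17 mitotic and 9 of 11 S-phase windows. A match describes the letters of the window and does not show that a factor binds there.

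**Figure D1:**
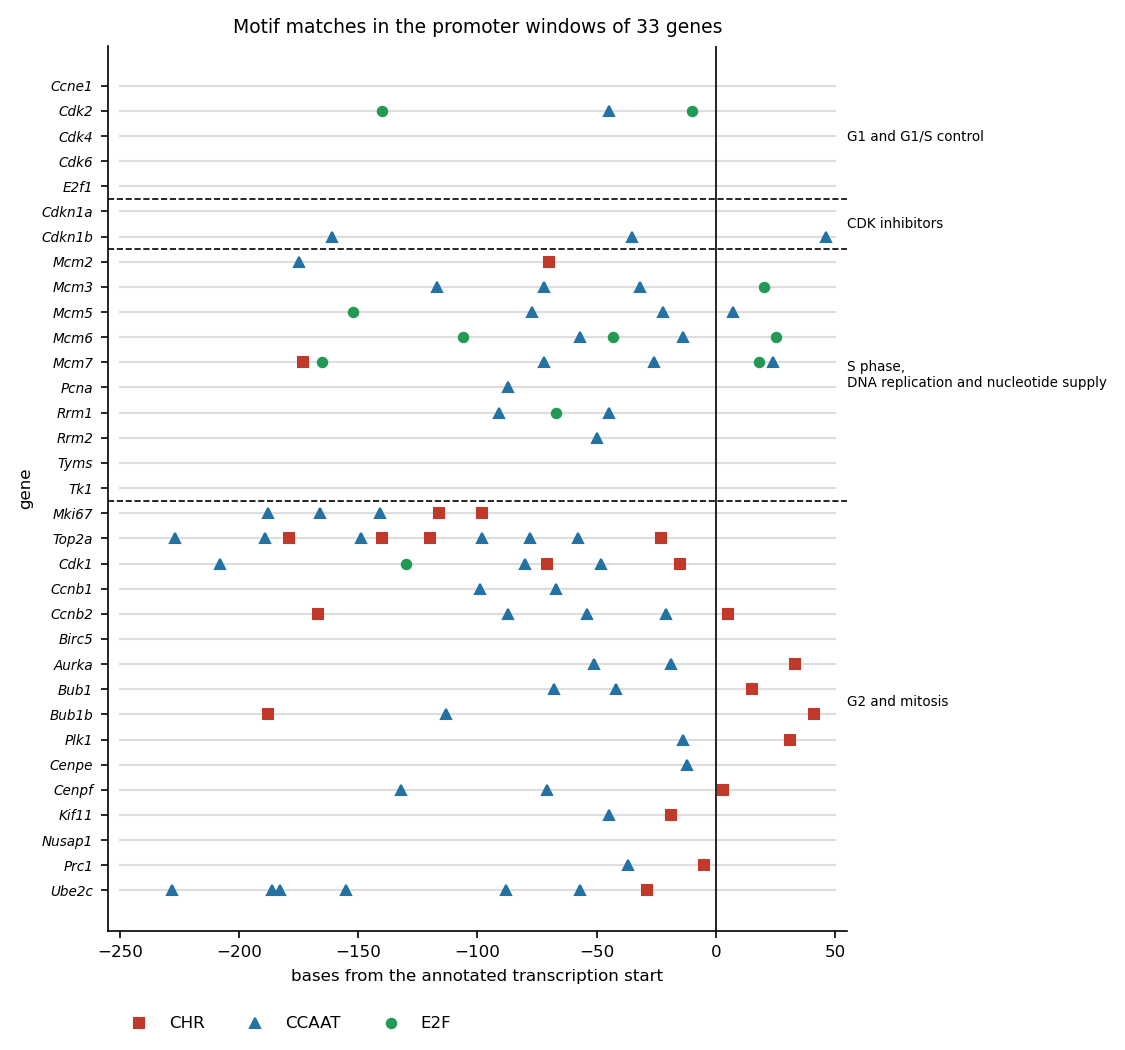
Positions of CHR, CCAAT and E2F matches (markers) in the promoter windows of 33 genes (rows, by class), from 250 bases before to 50 after the transcription start. Only the first window of each gene is drawn. Over all windows of a class, CHR matches were found in 76.5% of mitotic windows against 19.2% of all promoters, and E2F matches in 54.5% of S-phase windows against 6.0%.

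Levels differed widely between genes, also within classes. RPKM is scaled by the listed gene length, so levels can be compared only roughly between genes. In 5xFAD at 4 months, mean levels ran from 48.4 ± 3.81 RPKM (SD, n = 9) for Ccnd1, which encodes cyclin D1, and 28.8 ± 1.49 RPKM for Cdk4, through 25.8 ± 1.29 RPKM for the helicase gene Mcm3 and 18.1 ± 2.75 RPKM for Pcna, the sliding clamp of DNA polymerases. Other genes of the G1 and S-phase classes were low, such as E2f1 at 1.47 ± 0.377, Rrm2 at 1.17 ± 0.229, Tk1 at 0.399 ± 0.0466 and Ccne2 at 0.119 ± 0.0715 RPKM. The mitotic genes were all low: the highest mean among them was 2.66 ± 0.65 RPKM, for Ccnb2, and Ccnb1 was at 0.0532 ± 0.0375 RPKM. Ccnb1 was thus at or near the level of a few reads, and its lowest and highest library in that group were 0.0142 and 0.119 RPKM. Pcna, Tyms, Ccnb1, Ccnb2 and Stmn1 have named copies or pseudogenes in the annotation, so their values are uncertain where reads fell on both.

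The 5xFAD libraries were compared with wild type at 4 months to ask whether amyloid changes the cell-cycle programme. The mitotic genes rose together: all 15 that passed the main filter (at least 1 RPKM in 2 libraries) were called higher at an adjusted p under 0.05, and none lower. That filter can be passed through the 5xFAD libraries alone, so the genes were also tested with a filter on the mean over all libraries (at least 0.1 RPKM), which all genes of the set but Ccnb1 passed. By that filter 21 of 21 mitotic genes were higher, with log2 changes from 0.24 to 1.43 and a median of 0.69, beside a median of -0.008 over all 16646 genes tested. Among all tested genes, 8.95% were called higher by the main filter and 7.66% by the mean filter. In all, 24 of 33 and 32 of 42 genes of the set rose by the respective filter, and none fell.

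Mki67 had its lowest, median and highest values at 0.423, 0.523 and 0.739 RPKM in wild type and at 1.5, 2.02 and 2.25 RPKM in 5xFAD. The groups did not overlap, and the means differed 3.61-fold (log2 change 1.23 ± 0.0874 SE on log2(RPKM + 0.5), adjusted p = 4.96e-10). That scale understates changes of low genes; on recovered reads the change of Mki67 was 1.85. Ccnb2 ran from 0.29 over 0.695 to 1.02 RPKM in wild type and from 1.95 over 2.68 to 3.71 RPKM in 5xFAD, a 3.96-fold difference of means (1.43 ± 0.139, adjusted p = 7.77e-08). Cdk1, its kinase partner, ran from 0.601 over 0.775 to 1.03 RPKM in wild type and from 1.74 over 2.29 to 2.91 RPKM in 5xFAD (2.87-fold, 1.1 ± 0.105, adjusted p = 6.44e-08). For both genes every 5xFAD library was above every wild-type library. Top2a ran from 0.316 over 0.408 to 0.702 RPKM in wild type and from 1.06 over 1.59 to 1.84 RPKM in 5xFAD, again without overlap (3.24-fold, 1.05 ± 0.101, adjusted p = 6.6e-08). Birc5, which encodes survivin of the chromosomal passenger complex, ran from 0.165 over 0.172 to 0.274 RPKM in wild type and from 0.494 over 0.667 to 1.12 RPKM in 5xFAD (3.55-fold, adjusted p = 5.71e-05). Ccna2, the cyclin of S phase and early mitosis, ran from 0.282 over 0.308 to 0.571 RPKM in wild type and from 0.795 over 0.991 to 1.57 RPKM in 5xFAD (2.72-fold, adjusted p = 4.3e-06). Stmn1, which encodes the tubulin-binding protein stathmin, changed less, from a median of 0.828 RPKM to 1.26 RPKM with overlapping ranges (1.51-fold, adjusted p = 0.00627). Foxm1, the transcription factor of mitotic genes, rose 1.45-fold, from 0.902 ± 0.179 RPKM (SD, n = 7) to 1.31 ± 0.104 RPKM (n = 9), with adjusted p = 0.0014. Of the mitotic genes tested by the mean filter, Bub1, Kif11 and Stmn1 had overlapping groups, and the other 18 did not, where 2.96% of all genes by the main filter had every 5xFAD library above every wild-type library.

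Of the S-phase genes, 6 of 10 rose by the main filter: Mcm2, Mcm4, Mcm5, Mcm6, Mcm7 and Rrm2. Tk1, thymidine kinase, joined them by the mean filter (7 of 11, median log2 change 0.24). Mcm5 ran from 3.8 over 4.19 to 4.73 RPKM in wild type and from 5.61 over 6.97 to 7.67 RPKM in 5xFAD, without overlap (1.57-fold, 0.59 ± 0.0794, adjusted p = 9.52e-06). Mcm6 ran from 5.49 over 5.98 to 7.11 RPKM and from 6.89 over 8.56 to 10.1 RPKM, with a small overlap (1.39-fold, 0.45 ± 0.0626, adjusted p = 1.59e-05). The call of Mcm4 was lost without wild-type replicate 2 or 9. Rrm2, the regulated subunit of ribonucleotide reductase, showed the widest change of the class, from 0.295, 0.53 and 0.69 RPKM to 0.901, 1.16 and 1.53 RPKM as lowest, median and highest (2.26-fold, 0.71 ± 0.105, adjusted p = 2.94e-05). Its constitutive partner Rrm1 was at 6.93 ± 0.522 and 7.55 ± 0.573 RPKM (adjusted p = 0.104). Pcna was at 18.6 ± 1.98 and 18.1 ± 2.75 RPKM, with a 95% interval of the log2 change from -0.21 to 0.12. Tyms, thymidylate synthase, was at 0.687 ± 0.103 and 0.844 ± 0.129 RPKM (adjusted p = 0.145).

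In the G1 class, E2f1 and Cdk6 rose by the main filter (2 of 6 tested) and Ccne1 by the mean filter (3 of 8). E2f1, an activating E2F factor, ran from 0.442 over 0.506 to 0.815 RPKM in wild type and from 1.08 over 1.41 to 2.28 RPKM in 5xFAD (2.47-fold, 0.84 ± 0.115, adjusted p = 1.21e-05). The groups did not overlap. Cdk6 rose 1.39-fold, from 4.39 ± 0.446 to 6.12 ± 0.964 RPKM (adjusted p = 0.000315), with overlap. Ccne1, cyclin E1, was at 0.136 ± 0.0367 and 0.263 ± 0.0673 RPKM (1.94-fold, adjusted p = 0.0144 by the mean filter). The abundant G1 genes were not called: Ccnd1 had a log2 interval from -0.23 to 0.15 and Cdk4 from -0.053 to 0.16. Of the CDK inhibitors, Cdkn1a rose 1.78-fold, from 19.8, 26.8 and 37.8 RPKM to 26.7, 49.1 and 71.3 RPKM as lowest, median and highest (0.81 ± 0.198, adjusted p = 0.00574). Cdkn1b, which encodes p27, was at 10.4 ± 1.44 and 9.42 ± 0.981 RPKM and was not called (adjusted p = 0.224). Summed markers of neurons and neural progenitors ran from 4.54 to 6.32 RPKM in wild type and from 6.87 to 18.4 RPKM in 5xFAD, with 2 of 7 markers at a mean of at least 1 RPKM in both groups and Syt1, Nefl and Dcx under 0.1 RPKM. Summed endothelial markers (8 of 8 at a mean of at least 1 RPKM in both groups) ran from 88.8 to 197 RPKM and from 116 to 798 RPKM. Their part in these results was not tested.

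**Figure D2:**
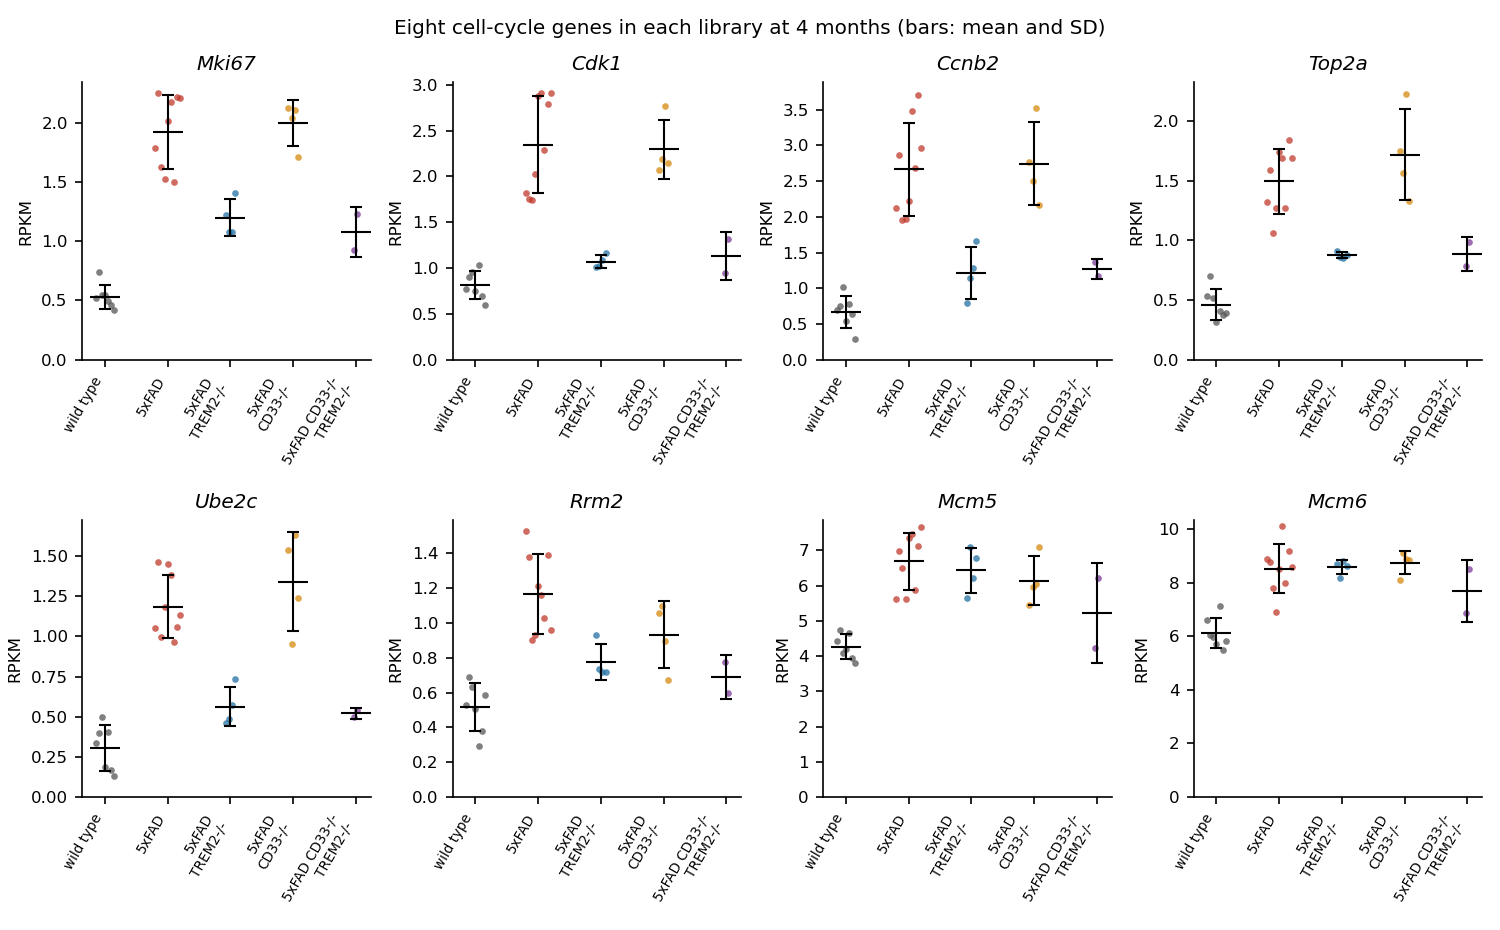
RPKM of 8 cell-cycle genes in each library at 4 months (points), with the mean and SD of each genotype group (bars). For Mki67, Cdk1, Ccnb2, Top2a and Ube2c the TREM2-/- libraries lie below the 5xFAD libraries, while for Mcm5 and Mcm6 they lie within the range of 5xFAD. For Rrm2 they run from 0.718 to 0.933 RPKM, against 0.901 to 1.53 RPKM in 5xFAD.

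The 5xFAD TREM2-/- libraries at 4 months had lower levels of part of the mitotic genes than 5xFAD. By the main filter 5 of 15 mitotic genes fell against 5xFAD, and none rose: Cdk1, Ccnb2, Ube2c, Mki67 and Top2a. Among all genes 2% were called lower. By the mean filter 6 of 21 fell, with Cenpe, a centromere motor protein gene, added, against 1.55% of all genes. The fitted change was negative for all 21 mitotic genes, with a median of -0.33, beside a median of 0.015 over all genes. No gene of the other classes was called by either filter.

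Cdk1 was at 1.01, 1.02, 1.09 and 1.16 RPKM in the 4 TREM2-/- libraries, all below the lowest 5xFAD library (1.74 RPKM). Its means differed 2.19-fold (log2 change -0.84 ± 0.126, adjusted p = 0.000181). Ccnb2 was at 0.786, 1.14, 1.28 and 1.66 RPKM, against at least 1.95 RPKM in 5xFAD (-0.88 ± 0.165, adjusted p = 0.00224). Both genes thus sat below the whole 5xFAD range. Ube2c was at 0.464, 0.484, 0.571 and 0.736 RPKM, below the lowest 5xFAD library at 0.963 RPKM (-0.66 ± 0.134, adjusted p = 0.00501). Mki67 was at 1.08, 1.08, 1.22 and 1.41 RPKM, below the lowest 5xFAD library at 1.5 RPKM (-0.51 ± 0.104, adjusted p = 0.00521). Top2a was at 0.857, 0.864, 0.878 and 0.91 RPKM, below the lowest 5xFAD library at 1.06 RPKM (-0.52 ± 0.121, adjusted p = 0.0154). None of these 5 genes, which are the called ones, overlapped between groups; 1.44% of all genes lay wholly below 5xFAD. The calls of Mki67, Top2a and Ube2c were lost with the replicate number as a block (adjusted p = 0.061, 0.0922 and 0.101) and with the leading number of the library titles as a term, while those of Cdk1 and Ccnb2 were kept in each alternative run. The call of Top2a was also lost without TREM2-/- replicate 1, 7 or 9, and without the libraries that hold both Xist and Ddx3y reads (adjusted p = 0.0699; over its 24 alternatives from 0.00455 to 0.123). Other mitotic genes were lower without passing the test, such as Birc5, with 0.371 ± 0.0985 RPKM (SD, n = 4) against 0.699 ± 0.185 RPKM (n = 9, adjusted p = 0.107).

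No S-phase gene was called in the same libraries. Mcm6 was at 8.18, 8.63, 8.68 and 8.79 RPKM in TREM2-/- libraries, inside the 5xFAD range, and its log2 change of 0.014 had a 95% interval from -0.14 to 0.17. Mcm5 was at 5.64, 6.22, 6.79 and 7.1 RPKM, also inside the 5xFAD range, with an interval from -0.24 to 0.15. The median log2 change of the 11 S-phase genes was 0.014. Rrm2, at 0.718, 0.719, 0.736 and 0.933 RPKM against a 5xFAD median of 1.16 RPKM, had the most negative change of the class (-0.38 ± 0.125) but was not called (adjusted p = 0.135). Tk1 ran from 0.216 to 0.332 RPKM, wholly below its 5xFAD range of 0.34 to 0.479 RPKM, and was not called either. By the main filter 1.44% of all genes lay wholly below 5xFAD. Cdkn1a was at 20.8, 26.3, 33.3 and 42.4 RPKM, against a median of 49.1 RPKM (-0.65 ± 0.237, adjusted p = 0.193). Whether the change of the mitotic genes differed from that of the S-phase genes was not tested.

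The 5xFAD TREM2-/- libraries were also set against wild type, with the same libraries of both groups as above, and part of the set was higher. By the main filter Mki67, Mcm5 and Mcm6 were called higher (3 of 33 genes of the set, against 0.322% of all genes), and by the mean filter Bub1b and Tpx2 as well (5 of 42, against 0.27%). Mcm5 was 1.51-fold higher (0.54 ± 0.0988, adjusted p = 0.00589) and Mcm6 was 1.4-fold higher (0.46 ± 0.0778, adjusted p = 0.00232). For both, each TREM2-/- library exceeded each wild-type library, as for 1.5% of all genes. Mki67 was 2.24-fold higher (0.72 ± 0.109, adjusted p = 0.000544). Bub1b, a spindle checkpoint kinase gene, was 1.71-fold higher and Tpx2, a spindle assembly factor gene, was 2.03-fold higher (adjusted p = 0.0391 and 0.0368 by the mean filter). Cdk1 was at 1.07 ± 0.0694 RPKM against 0.817 ± 0.151 RPKM and was not called (0.26, interval from -0.0079 to 0.53, adjusted p = 0.655). The call of Mcm5 was lost without TREM2-/- replicate 3 (adjusted p = 0.0539). Over the 42 genes 40 fitted changes were positive, and in limma 23 of the 33 had an unadjusted p under 0.05, as did 1001 of all 13024 genes. Summed endothelial markers were at 145 to 349 RPKM in the TREM2-/- libraries and neuronal and progenitor markers at 6.19 to 10.5 RPKM, both overlapping the 5xFAD ranges given above.

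In the 2 libraries labelled CD33-/-;TREM2-/-, 6 of 15 mitotic genes were called lower than in 5xFAD by the main filter: Cdk1, Mki67, Ube2c, Kif20a, Ccnb2 and Bub1b (against 3.41% of all genes). By the mean filter 8 of 21 were, with Cenpe and the kinase gene Aurka added (against 2.48%). The libraries held 0.944 and 1.32 RPKM of Cdk1 (-0.79 ± 0.163, adjusted p = 0.00473), and 0.928 and 1.23 RPKM of Mki67 (-0.61 ± 0.136, adjusted p = 0.00813). Kif20a, a motor protein gene of cytokinesis, was at 0.365 and 0.64 RPKM, against at least 0.835 RPKM in 5xFAD (-0.61 ± 0.152, adjusted p = 0.0219). Ube2c was at 0.497 and 0.544 RPKM (-0.72 ± 0.175, adjusted p = 0.019). For all 6 genes both libraries lay below the 5xFAD range, as they did for 7.35% of all genes. Replicate 1 holds Cd33 reads and also reads of both Xist and Ddx3y. The exclusions made for either reason thus leave out the same double-knockout library. The count was 3 without replicate 2, and it was 0 without the libraries with both Xist and Ddx3y reads. Without replicate 1, which holds Cd33 reads, none of the 6 calls remained, and the lone library left is then assumed to vary like the other groups. The Cdk1 change without it was -0.62 (adjusted p = 0.205). The double knockout was also compared with TREM2-/- alone, and no gene of the set was called by either filter (0.0691% and 0.0601% of all genes were). In limma 4 genes had an unadjusted p under 0.05, as did 751 of all 13024 genes. With voom on recovered reads 0 of the set were called, and 11 of all genes. The interval of the Cdk1 change was from -0.33 to 0.42, so changes within it cannot be told from none with 2 libraries. The 4 genes were Mcm3, Mcm5, Mcm7 and Rrm1, all S-phase genes and all lower in the double knockout (for Rrm1 -0.2 ± 0.083, adjusted p = 0.827).

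The CD33-/- libraries gave no call in the set by the main filter at 4 months, where 4.9% of all genes were called. In limma 7 genes of the set had an unadjusted p under 0.05, as did 3595 of all 13024 genes. With voom on recovered reads 2 of the set were called, and 1022 of all genes. By the mean filter 1 was called (against 2.73%): Bub1, a spindle checkpoint kinase gene, at 0.323, 0.392, 0.436 and 0.48 RPKM in CD33-/- against 0.177, 0.222 and 0.385 RPKM as lowest, median and highest in 5xFAD (0.3, adjusted p = 0.0497). The Mki67 values of 1.71, 2.04, 2.11 and 2.13 RPKM lay inside the 5xFAD range, with an interval of the log2 change from -0.17 to 0.26. Cdk1 was at 2.07, 2.15, 2.19 and 2.77 RPKM, also inside that range (interval from -0.27 to 0.25). Ccnd1 was at 33.2 to 35.5 RPKM in 3 libraries and at 54.3 RPKM in replicate 4, against 40.3 to 53.9 RPKM in 5xFAD (-0.31 ± 0.108, adjusted p = 0.077). Without CD33-/- replicate 4, 5 genes of the set were called, 2 higher and 3 lower, and 2343 of all 13024 genes were called. The count for the set was 3 without 5xFAD replicate 1, 2 without CD33-/- replicate 1 and 1 without 5xFAD replicate 10. Over all genes the count was 638 in the main fit and ran from 22 to 2343 with 1 library left out. These counts of the set are therefore not read as results about its genes.

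**Figure D3:**
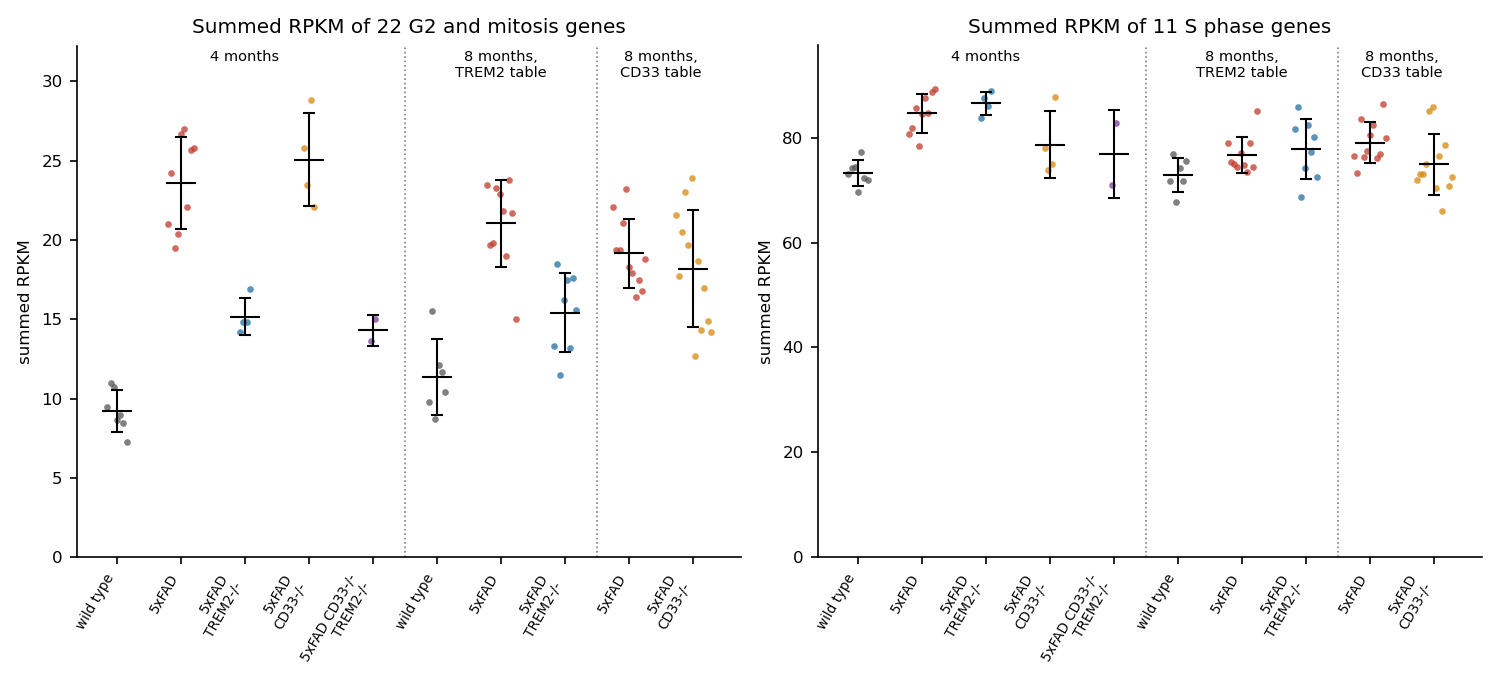
Summed RPKM of the 22 mitotic genes and of the 11 S-phase genes in each library (points), by group and table. At 4 months the mitotic sum had medians of 8.96 in wild type, 24.2 in 5xFAD and 14.8 in TREM2-/-, while the S-phase sum had medians of 73.1, 84.7 and 86.7.

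The levels of each class were also summed by library. The 22 mitotic genes summed to 7.27 to 11 RPKM in wild type, 19.5 to 27.0 RPKM in 5xFAD, 14.2 to 16.9 RPKM in TREM2-/-, 22.1 to 28.8 RPKM in CD33-/- and 13.6 and 15 RPKM in the double knockout. The wild-type, TREM2-/- and 5xFAD ranges did not overlap. The 11 S-phase genes summed to 69.6 to 77.3 RPKM in wild type, 78.5 to 89.2 RPKM in 5xFAD and 83.8 to 89.0 RPKM in TREM2-/-. Here the TREM2-/- libraries lay within the 5xFAD range and above wild type. The S-phase sums were 70.9 and 82.8 RPKM in the double knockout and ran from 73.9 to 87.8 RPKM in CD33-/-. Both of these groups reached into the wild-type range. Mcm3 and Pcna had the highest levels in the S-phase sum.

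Genes of the same pathways outside the set were counted at 4 months. Of 25 other mitotic genes tested by the main filter, 15 rose in 5xFAD against wild type and 1 fell, with a median log2 change of 0.35. That filter can be passed through the 5xFAD libraries alone. By the mean filter 33 of 46 other mitotic genes rose and 1 fell, where 7.66% of all genes rose. Of 35 other replication genes 11 rose by the mean filter. By the main filter 8.95% of all genes rose and 1015 of 13024 fell, which is the background of the main-filter counts that follow. The mitotic genes that rose included Cdca3 (0.429 ± 0.149 to 1.3 ± 0.148 RPKM, adjusted p = 1.11e-07), Racgap1 of the cytokinesis machinery (0.68 ± 0.151 to 1.49 ± 0.21 RPKM), the kinesin gene Kif22 and the anaphase activator gene Cdc20. Of 27 other replication genes, 7 rose and none fell, among them Uhrf1, which maintains DNA methylation at replication forks (0.466 ± 0.101 to 1.08 ± 0.136 RPKM, adjusted p = 1.01e-06), and Timeless, a replication fork protein gene (0.617 ± 0.0623 to 1.42 ± 0.372 RPKM). Of 25 other G1 regulators, Cdkn2c and Cdkn2b rose and E2f3 fell. A further list, called the CSF1R axis here, was named after the growth factor receptor of microglia. It also holds Csf2ra, a receptor gene for a different growth factor. Of its 8 genes tested, Tyrobp, Csf2ra and the ligand gene Csf1 rose and Csf1r fell (3410 ± 230 to 2800 ± 214 RPKM, adjusted p = 0.00263). Against 5xFAD, the TREM2-/- libraries had 0 calls among the other replication, mitotic and G1 genes by the main filter and 2 lower mitotic genes by the mean filter. In the CSF1R axis, Tyrobp fell from 3350 ± 421 to 2410 ± 425 RPKM (adjusted p = 0.00741) and Csf2ra from 72.9 ± 12.2 to 52.7 ± 7.76 RPKM (adjusted p = 0.0319). The double knockout had lower Racgap1, Cdca3 and Tyrobp, and CD33-/- had lower Espl1, Trp53 and Spi1, which encode separase, p53 and the myeloid factor PU.1. Against wild type, TREM2-/- libraries had higher Uhrf1 and Cdca3.

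At 8 months most tested mitotic genes were higher in 5xFAD than in wild type, and far more of all genes were called than at 4 months. In the table that holds wild type, 16 of 27 genes of the set rose and 2 fell by the main filter, where 28.3% of all genes were called higher and 30.5% lower. By the mean filter 29 of 42 rose and 2 fell, against 25.2% and 23.5% of all genes. Of the mitotic genes, 8 of 10 and 19 of 21 rose by the respective filter and none fell, with a median log2 change of 0.46 over the 21, beside 0.021 over all genes. Cdk1 ran from 0.491 over 0.729 to 0.923 RPKM in wild type and from 1.42 over 2.24 to 2.55 RPKM in 5xFAD, without overlap (3-fold, 1.12 ± 0.0984, adjusted p = 1.64e-09). Tpx2 ran from 0.331 over 0.456 to 0.517 RPKM and from 0.782 over 1.06 to 1.29 RPKM, also without overlap, as for 9.97% of all genes in that direction (0.71 ± 0.0921, adjusted p = 7.1e-07). Ccnb2 ran from 0.198 over 0.779 to 1.04 RPKM and from 1.26 over 2.23 to 2.43 RPKM, again without overlap (2.77-fold, 1.06 ± 0.162, adjusted p = 7.29e-06). Mki67 ran from 0.625 over 0.906 to 1.51 RPKM and from 1.19 over 1.77 to 2.28 RPKM (1.9-fold, 0.68 ± 0.125, adjusted p = 6.99e-05). Its ranges overlapped through wild-type replicate 2, whose title carries 2 replicate numbers. That library was the highest wild-type library for 13 of 22 mitotic genes. Its mitotic sum was 15.5 RPKM, against 8.72 to 12.1 RPKM in the others. In 5xFAD, replicate 9 was the lowest library for 15 of the 22 genes. Leaving out each library in turn gave 16 to 19 calls over the set, and Plk1, a mitotic kinase gene, lost its call without wild-type replicate 1.

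In S phase 3 of 9 tested genes rose and 1 fell, which for the rise is near the 28.3% of all genes. Mcm6 rose 1.39-fold, from 6.49, 7.08 and 8.35 RPKM to 8.36, 9.66 and 13.5 RPKM as lowest, median and highest (0.44 ± 0.0766, adjusted p = 3.31e-05). Mcm2 rose 1.29-fold and Mcm5 rose 1.24-fold, while Mcm3, of the same helicase, fell from 23.4 ± 1.14 to 21.2 ± 1.48 RPKM (-0.15 ± 0.0567, adjusted p = 0.0315). The calls of Mcm3 and Mcm5 were lost in 9 of 27 alternatives each. Pcna was at 16 ± 1.37 and 15.3 ± 1.24 RPKM (interval of the log2 change from -0.2 to 0.073).

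The G1 class moved in both directions at 8 months. E2f1 ran from 0.423 over 0.587 to 0.777 RPKM in wild type and from 0.961 over 1.17 to 1.63 RPKM in 5xFAD, without overlap (2-fold, 0.63 ± 0.0892, adjusted p = 2.45e-06). Ccnd2, cyclin D2, ran from 1.52 over 2.51 to 3.08 RPKM and from 2.2 over 4.06 to 5.47 RPKM (1.67-fold, 0.63 ± 0.183, adjusted p = 0.00533). Ccnd1 went the other way. It ran from 45.8 over 51.3 to 60.4 RPKM in wild type and from 31.8 over 36.3 to 43.5 RPKM in 5xFAD, so that every 5xFAD library lay below every wild-type library, as for 12.6% of all genes (-0.5 ± 0.089, adjusted p = 4.86e-05). Cdk4 rose 1.1-fold and Cdk6 rose 1.22-fold (adjusted p = 0.0113 and 0.019). Each of these 2 calls was lost in 1 of 27 alternatives, for Cdk6 without wild-type replicate 8. Among the inhibitors, Cdkn1a ran from 29.9 over 35 to 40.1 RPKM in wild type and from 89.2 over 121 to 203 RPKM in 5xFAD (3.81-fold, 1.88 ± 0.163, adjusted p = 1.66e-09). It had the largest fitted change of the 42 genes tested in that comparison. Cdkn1b was at 9.89 ± 1.28 and 8.8 ± 1.38 RPKM and was not called (adjusted p = 0.105). Summed endothelial markers, 8 of 8 at a mean of at least 1 RPKM in both groups, ran from 168 to 454 RPKM in wild type and from 357 to 1150 RPKM in 5xFAD. Summed mural cell markers ran from 40.3 to 75.6 RPKM (4 of 6 at a mean of at least 1 RPKM) and from 103 to 259 RPKM (5 of 6), and neuronal and progenitor markers from 5.5 to 14.8 RPKM and from 11.2 to 25.9 RPKM. The summed microglial markers ran from 15200 to 17500 RPKM in wild type and from 8740 to 13400 RPKM in 5xFAD, without overlap (at 4 months 15900 to 19000 and 12300 to 16300 RPKM). Their part in these results was not tested.

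**Figure D4:**
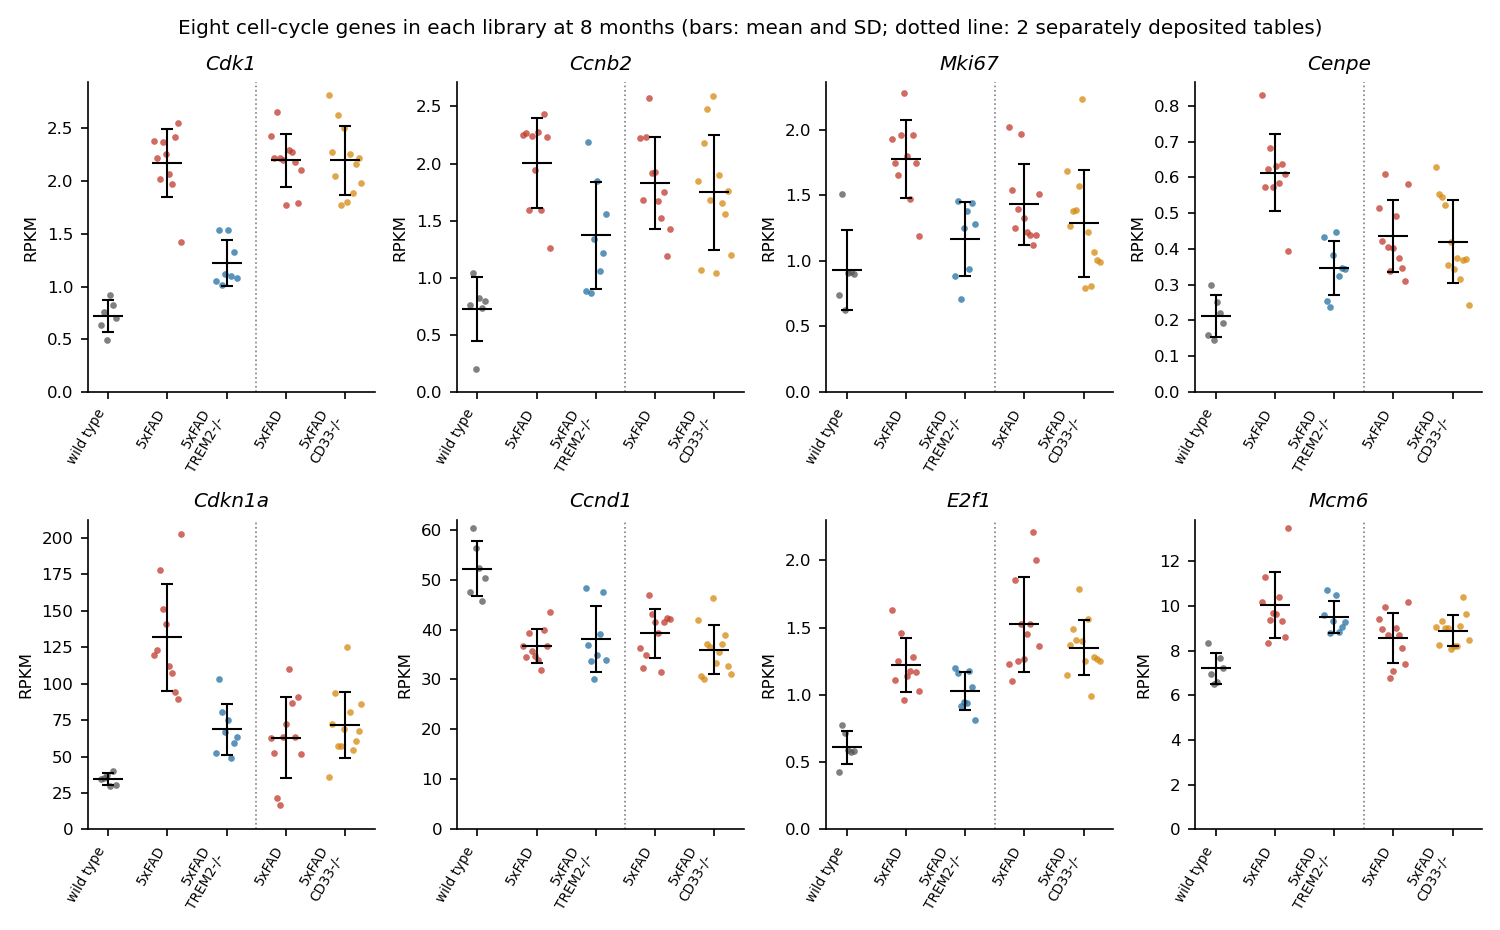
RPKM of 8 cell-cycle genes in each library at 8 months (points), with group means and SD (bars); a dotted line parts the 2 tables, and no test crosses it. In the table with wild type, Cdkn1a had medians of 35 in wild type, 121 in 5xFAD and 65.2 in TREM2-/-, and Ccnd1 had medians of 51.3, 36.3 and 35.9.

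At 8 months the TREM2-/- libraries had lower Cdkn1a and lower levels of part of the mitotic genes. By the main filter 8 of 27 genes of the set fell against 5xFAD and none rose, where 10.3% of all genes were called lower: 6 mitotic genes (Cdk1, Mki67, Foxm1, Top2a, Tpx2 and Ccnb2), Cdkn1a and Cdk4. By the mean filter 12 of 42 fell (against 7.92%), with the mitotic genes Birc5, Aurkb, Cenpe and Ube2c added. Cdk1 ran from 1.01 over 1.11 to 1.54 RPKM in TREM2-/-, against 1.42, 2.24 and 2.55 RPKM in 5xFAD (-0.63 ± 0.0904, adjusted p = 1.74e-05). The ranges met only at 5xFAD replicate 9, whose value of 1.42 RPKM lay below the highest TREM2-/- library, and the next 5xFAD library was at 1.97 RPKM. Mki67 ran from 0.708 over 1.27 to 1.46 RPKM, against 1.19, 1.77 and 2.28 RPKM (-0.46 ± 0.115, adjusted p = 0.00666). Foxm1 fell from 1.06 ± 0.104 to 0.83 ± 0.0964 RPKM (-0.23 ± 0.0633, adjusted p = 0.0117). Cdkn1a ran from 48.8 over 65.2 to 103 RPKM, against 89.2, 121 and 203 RPKM (-0.92 ± 0.15, adjusted p = 9.09e-05). All 8 TREM2-/- libraries were below the 5xFAD mean of 132 RPKM, with some overlap of the ranges. The calls of Cdk1, Cdkn1a and Mki67 were kept in each alternative run. The count of 8 dropped to 4 with the replicate block and to 4 without the libraries whose titles carry 2 numbers. Those libraries are TREM2-/- replicates 1 and 4 and wild-type replicate 2. The second number of TREM2-/- replicate 4 is 5, which is also the number of a separate TREM2-/- library. The labels do not say what the double numbers mark, so whether these libraries are independent is unknown. TREM2-/- replicate 4 was the lowest library of its group for 12 mitotic genes, with a mitotic sum of 11.5 RPKM. The call of Ccnb2 was lost in 19 and that of Cdk4 in 13 of 29 alternatives, many of which left out 1 library of either group, while Foxm1 was lost in 1 (the replicate block, adjusted p = 0.0646). No S-phase gene was called. Mcm6 was at 9.5 ± 0.713 RPKM (SD, n = 8) against 10 ± 1.48 RPKM (n = 10), with an interval of the log2 change from -0.21 to 0.079. Ccnd1 was at 38.1 ± 6.63 against 36.7 ± 3.41 RPKM (interval from -0.13 to 0.21). Summed endothelial markers ran from 534 to 1390 RPKM in TREM2-/-, and mural markers from 70.5 to 367 RPKM, both overlapping the 5xFAD ranges.

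Against wild type, the TREM2-/- libraries at 8 months had 9 higher genes and 1 lower gene of 27, where 19.9% of all genes were called higher and 22.4% lower. By the mean filter it was 12 and 1 of 42, against 17.3% and 16.4%. Cdkn1a was 1.99-fold higher (0.95 ± 0.17, adjusted p = 0.000109) and Cdk1 was 1.69-fold higher (0.49 ± 0.103, adjusted p = 0.000477), both without overlap. E2f1 (1.68-fold, adjusted p = 0.000346) and Mcm6 (1.32-fold, adjusted p = 0.000555) did not overlap either. Of all genes, 8.6% lay wholly above and 9.41% wholly below wild type. Mki67 was at 1.17 ± 0.284 against 0.934 ± 0.307 RPKM and was not called (adjusted p = 0.176). The call of Mcm4 was lost without wild-type replicate 6 (adjusted p = 0.0515). Ccnd1 was lower than in wild type (-0.46 ± 0.093, adjusted p = 0.000355). Summed endothelial markers ran from 534 to 1390 RPKM in TREM2-/- and from 168 to 454 RPKM in wild type, without overlap. The summed microglial markers ran from 9000 to 13600 RPKM and from 15200 to 17500 RPKM, also without overlap. Mural markers (70.5 to 367 and 40.3 to 75.6 RPKM) and neuronal and progenitor markers (13.9 to 24 and 5.5 to 14.8 RPKM) overlapped. Their part in these results was not tested.

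The other pathway genes at 8 months showed calls in both directions. Of 23 other mitotic genes, 17 rose in 5xFAD against wild type by the main filter and 4 fell. By the mean filter 31 of 47 rose and 4 fell, against 25.2% and 23.5% of all genes. Lmnb1, the lamin B1 gene, was among those that rose (10.8 ± 0.938 in wild type, 42.6 ± 15 RPKM in 5xFAD, adjusted p = 1.21e-09). The condensin subunit gene Ncaph fell from 4.62 ± 0.468 to 2.51 ± 0.349 RPKM (adjusted p = 2.26e-08). Separase (Espl1) fell and Cdc20 rose. By the main filter 28.3% of all genes were called higher and 30.5% lower, which is the background of the main-filter counts here. Of 26 other replication genes 9 rose, such as Chaf1a, Timeless and Dut, and 3 fell, such as Slbp. By the mean filter it was 14 and 2 of 36 replication genes. Of 26 other G1 regulators 8 rose and 8 fell, near the shares of all genes in both directions. Gadd45b and Cdkn2c rose, and Myc (93.8 ± 8.14 to 60.5 ± 8.24 RPKM, adjusted p = 2.71e-07) and E2f3 fell. In the CSF1R axis 4 of 9 rose (Csf2ra, Csf1 and Tyrobp among them) and 4 fell (Csf1r among them). In TREM2-/- libraries, 5 of the 23 other mitotic genes fell against 5xFAD and 2 rose, where 10.3% of all genes fell and 889 of 12622 rose. By the mean filter 9 of 47 fell and 2 rose, where 7.92% of all genes fell. Cdca3 and Lmnb1 fell, and Ncaph (2.51 ± 0.349 to 3.5 ± 0.361 RPKM, adjusted p = 0.000232) and Espl1 rose. Of the replication genes Cdt1, the licensing factor gene, fell. Among the G1 regulators 3 fell and 2 rose. Cdkn2a, which encodes the inhibitor p16 and also the protein ARF, fell from 1.24 ± 0.566 to 0.34 ± 0.161 RPKM (adjusted p = 0.000102). Its level is for the whole gene and does not tell these products apart. Gadd45b and Cdkn2c also fell, and Myc and Fbxw7 rose. Csf2ra, Tyrobp and Csf1 fell. Against wild type, the TREM2-/- libraries had 9 higher and 2 lower of 23 other mitotic genes, 7 and 2 of 26 replication genes, 5 and 5 of 26 G1 regulators and 4 and 4 of 9 genes of the CSF1R axis, where 19.9% of all genes were higher and 22.4% lower. By the mean filter it was 12 and 2 of 47 mitotic genes and 10 and 2 of 36 replication genes, against 17.3% and 16.4% of all genes.

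The CD33-/- libraries at 8 months gave no call in the set by either filter, where 3.3% of all genes were called by the main filter and 3.04% by the mean filter. In limma 2 genes had an unadjusted p under 0.05 by the main filter, Ccnd2 (0.33 ± 0.129, adjusted p = 0.237) and Mcm5 (-0.14 ± 0.0679, adjusted p = 0.353). Of all 11345 genes 1530 did. With voom on recovered reads 0 of the set were called, and 388 of all genes. Mki67 ran from 0.792 over 1.24 to 2.24 RPKM in CD33-/- and from 1.12 over 1.33 to 2.02 RPKM in 5xFAD (-0.13, interval from -0.36 to 0.1). Cdk1 ran from 1.77 over 2.19 to 2.82 RPKM and from 1.77 over 2.22 to 2.66 RPKM, with the interval of its log2 change from -0.14 to 0.14. Cdkn1a spread widely in both groups, from 35.8 to 125 RPKM and from 16.5 to 110 RPKM (interval from -0.24 to 0.84). The count stayed at 0 without each library in turn, replicate 7 with its Cd33 reads included. Of the other pathway genes Pold1, the catalytic subunit gene of DNA polymerase delta, fell from 3.63 ± 0.371 to 2.92 ± 0.315 RPKM (adjusted p = 0.0139).

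**Figure D5:**
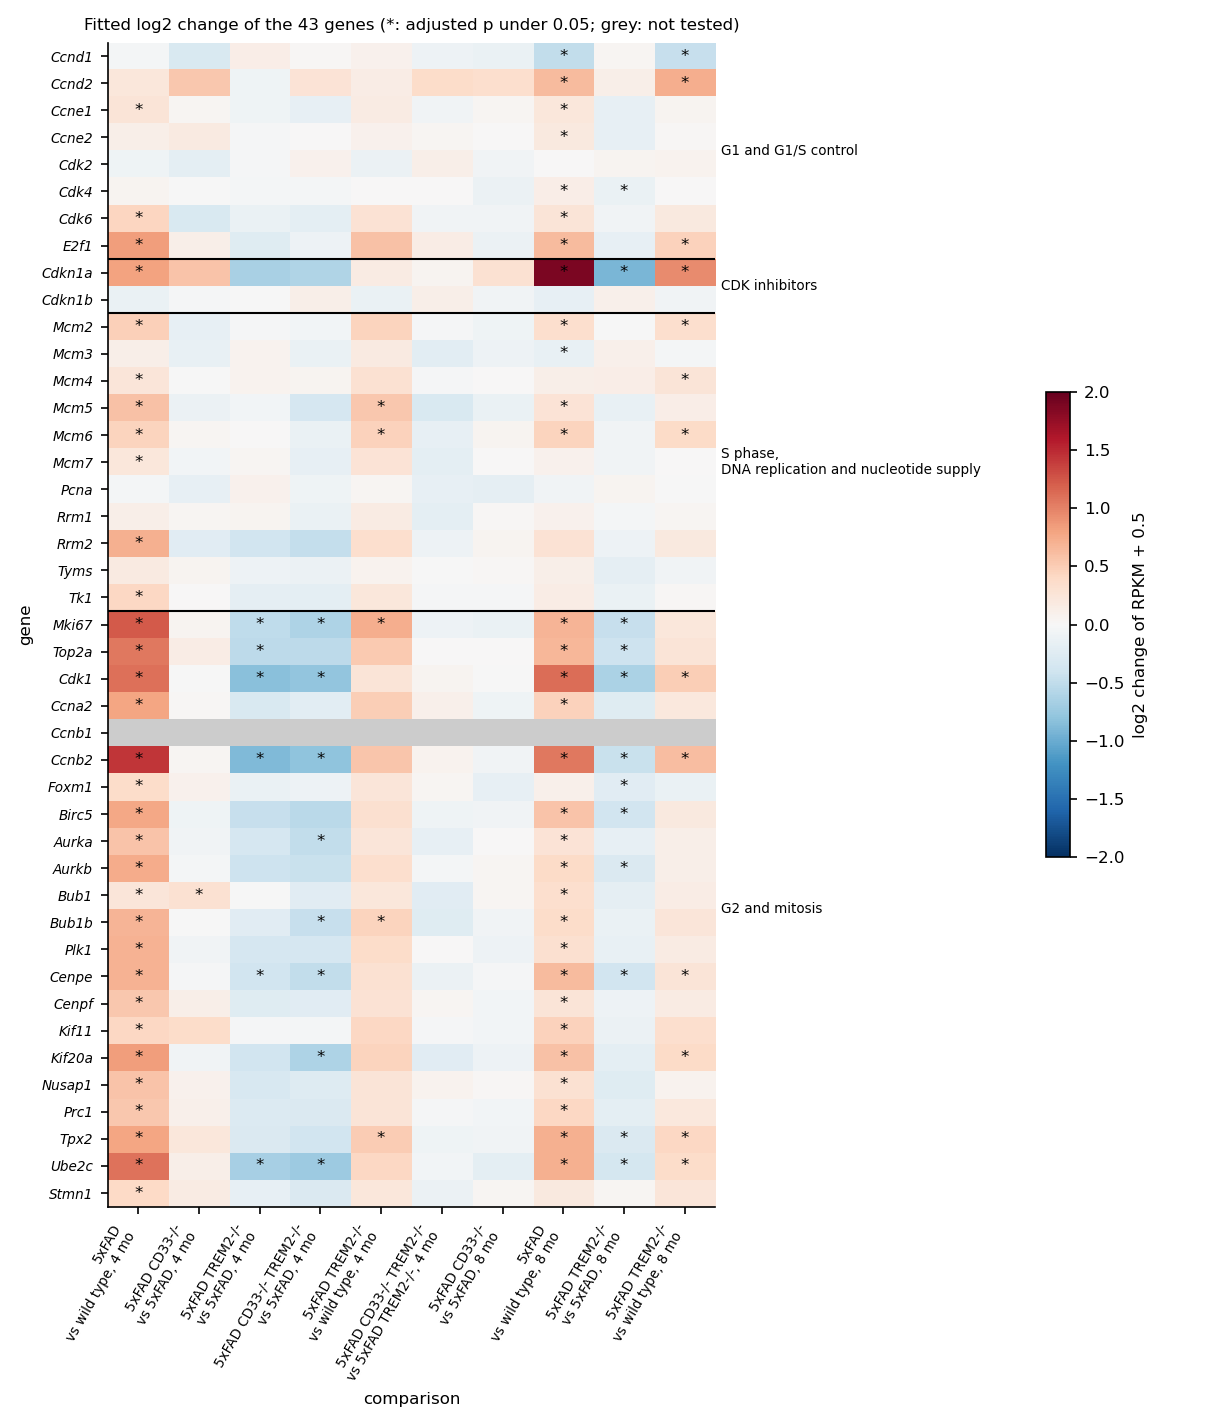
Fitted change on log2(RPKM + 0.5) (colour scale) of the 43 genes (rows, by class) in 10 comparisons (columns), from the fit with the filter on the mean; an asterisk marks an adjusted p under 0.05, and grey marks Ccnb1, which was not tested. All 21 tested mitotic genes are called in 5xFAD against wild type at 4 months, and Cdkn1a has the largest change, 1.88, at 8 months.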

How the data were processed

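Per the labels' protocols, microglia were sorted for CD11b and CD45 and sequenced as TruSeq stranded mRNA libraries. The authors deposited RPKM values in 3 tables. The submitters' processing notes list STAR, HTSeq and edgeR, and the builds mm10 and GRCm38, without roles. Not given in the sources used here is any version, annotation release, filter or strand setting. Of 39179 gene IDs, 37607 were in GENCODE release M21, all 43 genes included.

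The 73 libraries were grouped by the labelled genotype and age. Whole reads were recovered from 100% of the RPKM values with the gene lengths (tolerance 0.05 reads), which gave each library's depth. Library totals ran from 28942881 to 79654244 reads at 4 months, 26753820 to 42788464 in the CD33 table and 21188034 to 51031163 in the TREM2 table. The 279 pairs of libraries within groups differed by more than counting error (lowest chi-square per degree of freedom 5.26). Two-sided tests on log2(RPKM + 0.5) were made in limma 3.58.1 (R 4.3.3) with trended and robust moderation and Benjamini-Hochberg adjustment over all genes tested in a table (13024 at 4 months, 11345 in the CD33 table and 12622 in the TREM2 table). Each table was fitted whole, so its groups share an estimate of spread, and no test crossed tables. To pass the main filter, a gene needed 1 RPKM in a number of libraries equal to the table's smallest group. The mean filter asked for a mean of 0.1 RPKM. A call is an adjusted p under 0.05. The fits were tested on simulated data. Intervals are 95%.

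The genes, the lists and the comparisons were chosen with earlier results of these data known. All 43 genes could be named; of each pathway list up to 4 called genes with the smallest adjusted p were named per comparison. Alternatives were the pseudocount, the filters, median-ratio scaling, a fit of only the groups compared, the replicate number as a block, the leading title number as a term, each library left out, and, chosen after seeing the data, voom on the recovered reads, the exclusion of doubtful libraries, and Xist as a covariate. RefSeq promoters (GRCm38.p6) were matched by symbol for 33 of 43 genes.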

Additional observations from a re-analysis of the deposited data

Results flagged for a closer look

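In each group of 4 to 10 libraries, the highest or lowest library was compared with the range of the others by Dixon's criterion, and 32 of 301 sets of values stood out. Chance alone flags about 1 in 20 such sets. No explanation was weighed.

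Wild-type replicate 2 at 8 months was the highest of its group for Mki67 (1.51 RPKM), Top2a (1.18), Foxm1 (1.16), Ube2c (0.531), Mcm5 (5.39), Cdk6 (4.94) and Ccne2 (0.214). In the same group replicate 6 was highest for Cdkn1b (12.4 RPKM) and Ccne1 (0.343) and lowest for Ccnb2 (0.198). Among the 5xFAD libraries of that table, replicate 9 was lowest for Cdk1 (1.42 RPKM) and Ccnb1 (0.00983) and highest for Mcm2 (8.18). Replicate 3 was highest for Mcm7 (3.5 RPKM) and Ccne2 (0.395), and replicate 1 was lowest for Tyms (0.501). In TREM2-/- at 8 months, replicate 9 was lowest for Ccne1 (0.065 RPKM).

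At 4 months, CD33-/- replicate 4 was highest for Ccnd1 (54.3 RPKM) and Mcm2 (8.05), and replicate 3 for Tk1 (0.507) and Prc1 (0.879). In TREM2-/-, replicate 3 was highest for Cdk6 (5.99 RPKM), replicate 7 for Rrm1 (8.26) and replicate 1 for Rrm2 (0.933), and replicate 1 was lowest for E2f1 (0.941). In 5xFAD, replicate 1 was highest for Ccnd2 (2.99 RPKM), replicate 8 for Ccne2 (0.294), replicate 13 for Cdkn1b (11.6), and replicate 4 for Ccna2 (1.57) and Birc5 (1.12). In wild type, replicate 8 was highest for Mcm3 (26.6 RPKM) and replicate 10 for Mki67 (0.739).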

How the results depend on the processing

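No called gene changed direction in any alternative run. The calls kept in every alternative were 20 of 24 for 5xFAD against wild type at 4 months (Kif11, Mcm4, Mcm7 and Stmn1 were lost in some) and 13 of 18 at 8 months. It was 2 of 5 for TREM2-/- against 5xFAD at 4 months, 3 of 8 at 8 months, 0 of 6 for the double knockout against 5xFAD, 2 of 3 and 8 of 10 for TREM2-/- against wild type at 4 and 8 months. The number of genes of the set called moved by more than 1.5 times as follows. For TREM2-/- against wild type at 4 months (3) it was 8 with a pseudocount of 0.1, 5 with no filter, 5 with the mean filter and 6 with voom. For CD33-/- against 5xFAD at 4 months (0) it was 1 with the mean filter, 1 with the title number as a term, 2 with voom and 1 with Xist as a covariate. For the double knockout against 5xFAD (6) it was 1 in a fit of only the groups compared, 1 with the replicate block, 1 with the title number and 0 without libraries holding both Xist and Ddx3y reads. For TREM2-/- against 5xFAD it was 2 with the replicate block and 2 with the title number at 4 months (5), and 4 with the block and 4 without libraries whose titles carry 2 numbers at 8 months (8). For 5xFAD against wild type at 8 months (18) it was 28 with no filter and 31 with the mean filter. More genes were tested under the looser filters; the cause of the other shifts was not tested. The replicate block changed no other count of the set beyond 1.5 times. The labels do not say what the numbers mark. In no comparison with 3 or more pairs did every same-numbered pair of libraries correlate above 0.1. These correlations cannot show whether the numbers mark pairs or batches, and the main fit used no block. Part of the pairs did deviate together. For TREM2-/- and 5xFAD at 8 months, 6 of 8 pairs by replicate number (median r 0.24, other pairs -0.024) and 9 of 14 by title number (median 0.275) were above 0.1, and for CD33-/- and 5xFAD at 8 months 13 of 18 by title number (median 0.344, other pairs -0.0749) and 4 of 11 by replicate number.

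Leaving out each library in turn gave 23 to 25 calls for 5xFAD against wild type at 4 months and 16 to 19 at 8 months. For TREM2-/- it gave 4 to 5 and 6 to 8 against 5xFAD, and 2 to 4 and 9 to 14 against wild type, at 4 and 8 months. For CD33-/- against 5xFAD it gave 0 to 5 at 4 months and 0 to 0 at 8 months. For the double knockout it gave 0 to 7 against 5xFAD and 0 to 0 against TREM2-/-. The double knockout had 3 calls without its replicate 2 and 0 without its replicate 1.

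Over all genes, the settings other than leaving out 1 library gave 19 (replicate block) to 1964 (title number) calls for CD33-/- against 5xFAD at 4 months (638), and leaving out 1 library gave 22 (CD33-/- replicate 2) to 2343 (CD33-/- replicate 4). At 8 months (374) the ranges were 19 to 507, and 188 to 561 with 1 library left out. They were 75 to 599 and 147 to 533 for the double knockout against 5xFAD (488), 148 to 485 and 157 to 433 for TREM2-/- against 5xFAD at 4 months (311), 1306 to 2347 and 1750 to 2634 for 5xFAD against wild type at 4 months (2181), 26 to 82 and 28 to 52 for TREM2-/- against wild type at 4 months (52), and 5 to 22 and 8 to 17 for the double knockout against TREM2-/- (9). Single libraries moved these counts by more than 1.5 times: for CD33-/- at 4 months 10 of 13 (all of CD33-/- and 5xFAD replicates 1, 7, 8, 9, 11 and 13), for CD33-/- at 8 months 11 of 23 (CD33-/- replicates 3, 5, 6, 7 and 11, 5xFAD replicates 1, 4, 5, 6, 7 and 10), both double-knockout libraries against 5xFAD and replicate 1 against TREM2-/-, and at 4 months TREM2-/- replicates 1 and 9 against 5xFAD and 3, 7 and 9 against wild type. On recovered reads voom called 2267 genes for 5xFAD against wild type, 305 for TREM2-/- and 1022 for CD33-/- against 5xFAD at 4 months. The deposited values are not counts, and the planned edgeR and DESeq2 fits were not run on the recovered reads either. Few reads lie behind some genes: Ccnb1 was at 0 to 0.124 RPKM, and in wild type at 4 months Ccne1 and Ccne2 had a median of 13 and 10 reads.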

Other observations

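The labels give no sex, and the groups differ in how many libraries hold Xist reads or reads of the Y-linked gene Ddx3y (at least 1 RPKM). At 4 months, 1 library each of the double knockout, CD33-/- and TREM2-/- groups held both. In 5xFAD at 4 months, 4 libraries held Xist alone and 5 held Ddx3y alone, and 5 genes of the set, 3 of them mitotic, were higher in every Xist library than in every Ddx3y library, where 3.24% of all genes were. In CD33-/- at 8 months (8 and 4 libraries) 4 genes, all mitotic, were lower in every Xist library, where 2.01% of all genes were. In TREM2-/- at 8 months (5 and 3 libraries) 4 genes, 2 of them mitotic, were lower in every Xist library (4.39% of all genes). In wild type at 8 months (3 and 3) 3 genes, 1 of them mitotic, were higher (4.45%), and at 4 months (4 and 3) 1 was higher and 1 lower. In the 5xFAD groups at 8 months the number was 0 in both directions. These are descriptions without a test.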
